A study of Mus musculus with 12 samples.

Results

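The comparison described here sets RAW264.7 cells given palmitic acid together with FABP4 against cells given palmitic acid alone, 3 arrays each, which makes 6 of the study's 12 arrays. Members were chosen by their labels: palmitic acid present in all 6, FABP4 present in 3. RAW264.7 is an established mouse macrophage line. Cells of both groups were exposed for 24 h to 0.2 mM palmitic acid, and the second group also received recombinant FABP4 at 200 nM. The medium held 0.5% BSA free of fatty acids in every group, and cells had been grown with 10% serum. The other 6 arrays are cells without palmitic acid, 3 of them untreated controls and 3 with FABP4 alone. All cells are of this single line. Nothing in the labels states that a group's arrays stem from separate cultures, so a p-value here speaks to the spread between arrays, and that spread may be technical.

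FABP4, also called aP2, is a small carrier protein that binds long-chain fatty acids inside adipocytes and macrophages, and it is also released into the blood. Palmitic acid is a saturated fatty acid that macrophages take up, oxidise in mitochondria, store in lipid droplets or build into membrane lipids. In macrophages a saturated fatty acid load is known for stress in the endoplasmic reticulum and for inflammatory signalling. The comparison asks what FABP4 added from outside the cell does to transcripts while that fatty acid is present.

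The array reads the cell's own transcripts of this protein family, not the added protein. The first 30 of 60 bases of the probes for the family members that were well above background on all 6 arrays are given 5′ to 3′, with the stretch of each probe in the files' mm9 coordinates. The position of these probes within their transcripts was not analysed here.
Fabp3, chr4:129992652-129992711, plus strand: taaaactgtatccaaagggtgctccaaggt
Fabp4, chr3:10204452-10204511, minus strand: aagaggcctggatggaaatttgcatcaaac
Fabp5, chr3:10016185-10016244, plus strand: gtcaaatgcaacaaacagcttcacttcttt

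Levels are log2 of the processed spot intensity relative to the 75th percentile of the same array, so 0 is the level of that percentile. A difference is the level with FABP4 minus the level without, both with palmitic acid. Across the 12 arrays 42.8% to 46.7% of 59305 spots were well above background and 0 were saturated, and 17600 genes were tested. Of 9 macrophage markers, 8 were well above background on all 6 arrays, and Mertk on none of them. Their summed linear level was 981 to 1020 with palmitic acid alone and 987 to 1041 with FABP4 added. Of markers of other cell types, 3 of 4 for osteoclasts and 2 of 4 for dendritic cells were above background on all 6 arrays. For neutrophils it was 2 of 5, S100a8 and Elane, for fibroblasts 1 of 4 and for adipocytes 0 of 4. The adipocyte hormone gene Lep was above background on 5 of the 6 arrays. Adipoq, another adipocyte hormone gene, and the neutrophil marker Ly6g were not above background on any. The summed level of the fibroblast markers was 0.289 to 0.2998 with palmitic acid alone and 0.273 to 0.758 with FABP4, where the collagen gene Col3a1 was above background on 1 array. All 6 arrays lay on 1 slide. Palmitic acid arrays 1 and 2 lay in its row 1, whereas palmitic acid array 3 and the 3 arrays with FABP4 lay in row 2, so row and FABP4 are partly mixed.

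With palmitic acid present, 0 of 17600 genes differed between cells with and without FABP4 in limma at an adjusted p under 0.05 (0% called). The smallest adjusted p was 0.381, and 1360 genes (7.73%) had an unadjusted p under 0.05. The differences were small for most genes. For 9884 genes (56.2%) the 95% confidence interval lay inside a 1.2-fold change in either direction, for 15559 (88.4%) inside 1.5-fold and for 17021 (96.7%) inside 2-fold. The median SE of a difference was 0.07 with n = 3 arrays per group. Estimates beyond 2-fold were found for 49 genes, 22 higher and 27 lower, and 6 of those 49 were above background on all 12 arrays. Since RNA was taken in bulk, a different share of cells expressing a gene and a different amount of RNA per cell cannot be told apart. In the plot of all genes the spread is wide at low levels and narrow at high levels.

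**Figure D1:**
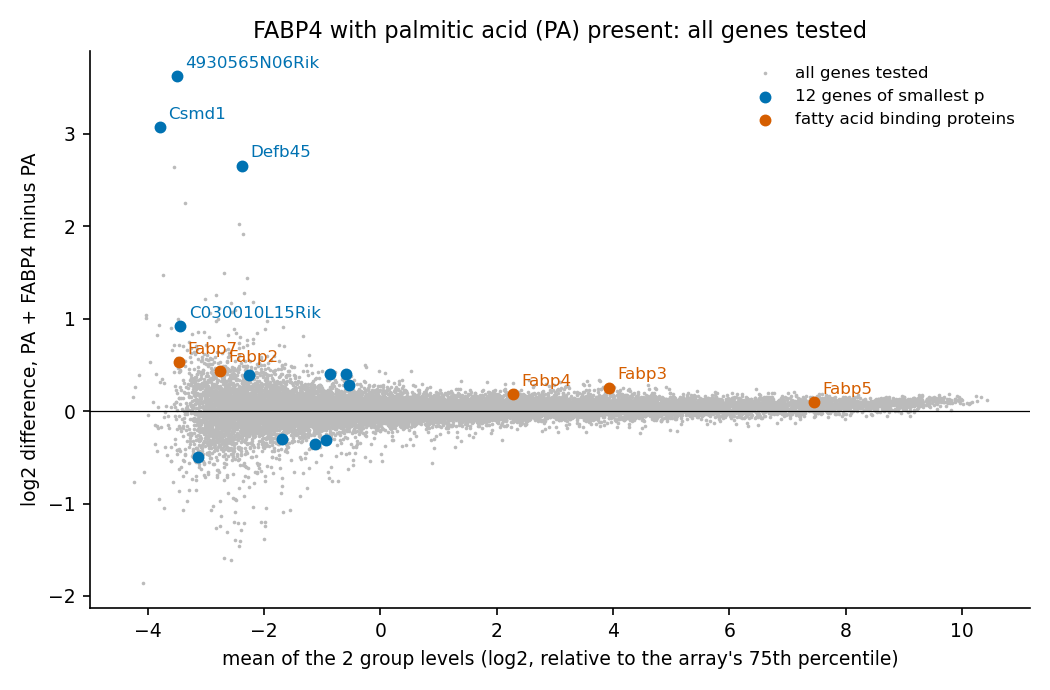
Difference between palmitic acid with FABP4 and palmitic acid alone (y axis, log2) against the mean of both group levels (x axis, log2 relative to each array's 75th percentile), 1 point per gene for the 17600 genes tested. Orange points are the 5 fatty acid binding protein genes. Blue points are the 12 genes of smallest p among those with an official symbol. None of these passed at an adjusted p under 0.05, and the wide differences lie at low levels.

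Among genes with an unadjusted p under 0.05, 1075 were higher with FABP4 (6.11% of those tested) and 285 lower (1.62%), and the median difference of all genes was 0.04. That split follows the scale: with each array scaled by the percentile of probes detected on all arrays it was 474 higher and 558 lower with a median of 0.00, and with no scaling it was 59 higher and 1102 lower with a median of -0.10. The difference also moved with the level of a gene. The median was 0.00 over the 2709 genes of lowest level, 0.04 over the 3352 genes with levels from 2 to 4, and 0.09 over the 571 genes above 8, of which 97.6% had a positive difference. Under quantile normalization, which gives every array the same distribution, the medians were 0.04 over the lowest level and 0.00 above 8. Among the 1075 genes that were higher, palmitic acid array 3, the one that shared row 2 with the FABP4 arrays, was the nearest of the palmitic acid arrays to the FABP4 mean in 687 (63.9%), against 45.4% of all genes. Among the 285 genes that were lower it was the nearest in 99 (34.7%). With the row as a further block the estimate rests on that single palmitic acid array. The split was then 293 higher and 323 lower, and the median was 0.00. The part of row in these differences was not tested.

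The 5 tested genes for fatty acid binding proteins had positive estimates, except Fabp5 without scaling, Fabp7 with the row as a block and Fabp2 without array 3 of palmitic acid with FABP4, and 0 passed. Of 9 family members on the array, Fabp1, Fabp6, Pmp2 and Fabp12 were not above background on all 3 arrays of any group. Fabp4, the gene of the added protein, had levels of 2.27, 2.02 and 2.26 with palmitic acid alone and 2.40, 2.33 and 2.39 with FABP4 added. The groups did not overlap, and palmitic acid array 2 was the lowest of the 6 arrays. Of all genes, 11.4% had the 3 FABP4 arrays above every palmitic acid array and 3.1% below. The difference was 0.19 ± 0.07 (SE, 1.14-fold, 95% interval 0.03 to 0.34, unadjusted p = 0.0217, adjusted p = 0.622 in limma). Controls had Fabp4 levels of 1.65, 1.60 and 1.64. Fabp3, which encodes the heart-type binding protein, had levels of 3.74, 3.79 and 3.88 without and 4.04, 4.03 and 4.10 with FABP4. These groups did not overlap either, and the difference was 0.25 ± 0.06 (1.19-fold, adjusted p = 0.622), with 0.18 ± 0.05 on a second probe of the gene. Fabp5, the epidermal-type binding protein that macrophages carry alongside Fabp4, had 7.37, 7.38 and 7.49 without and 7.53, 7.53 and 7.48 with FABP4. Its groups overlapped, at a difference of 0.10 ± 0.05. Fabp2 and Fabp7, the intestinal and brain types, were near background, with differences of 0.44 ± 0.43 and 0.53 ± 0.34. With the row as a block the differences were 0.11 for Fabp4, 0.18 for Fabp3, 0.02 for Fabp5, 0.09 for Fabp2 and -0.04 for Fabp7, and their median was 0.09 against 0.25. Without scaling between arrays Fabp4 had 0.06 and Fabp5 -0.03.

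Genes that take up, activate or oxidise fatty acids lay close to 0. Of 12 tested genes of fatty acid uptake and activation, 0 passed in either direction, with a median of 0.02 and a range from -0.12 to 0.10. Fatty acid oxidation genes and PPAR targets gave 0 calls among 17, with a median of 0.01 beside 0.04 for all genes. Every one of these 29 intervals lay inside 1.5-fold. Slc25a20, the carrier that brings acylcarnitines into mitochondria, had levels of -0.55, -0.40 and -0.76 without and -0.83, -0.87 and -0.79 with FABP4. Its groups did not overlap, and palmitic acid array 3 lay next to the FABP4 arrays. The difference was -0.26 ± 0.11 (adjusted p = 0.622), and it was -0.07 with the row as a block. Pparg, a nuclear receptor for fatty acids that is active in fat cells and macrophages, had 0.09 ± 0.07, and it turned to -0.04 without scaling.

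Of 15 tested lipid droplet and triglyceride genes, 0 passed, 8 were positive and 7 negative, with a median of 0.01. Cideb, a protein of droplet and lipoprotein handling, had levels of -2.34, -2.31 and -2.26 without and -1.51, -1.84 and -2.04 with FABP4. All 3 FABP4 arrays were higher and they spread more widely than the palmitic acid arrays, with a difference of 0.50 ± 0.12 (1.42-fold, 95% interval 0.23 to 0.78, adjusted p = 0.622). A second probe of Cideb was above background on 1 of the 6 arrays. Fitm2, which promotes droplet formation, had 0.12 ± 0.07, and the droplet coat gene Plin3 had 0.07 ± 0.05. Both fell below 0 without scaling, at -0.01 and -0.06. For Fitm2 a second probe had -0.14 ± 0.23. It was above background on 3 arrays with palmitic acid alone and 2 with FABP4 added.

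Of 26 tested cholesterol biosynthesis genes, 0 passed, 24 were positive (92.3%, beside 64.9% of all genes) and 2 negative, and the median was 0.08. At an unadjusted p under 0.05 there were 6 higher and 0 lower, beside 6.11% and 1.62% of all genes. Under the percentile of probes detected on all arrays 20 of 26 were positive with a median of 0.05, and without scaling 5 of 26 (19.2%, beside 14.0% of all genes) with a median of -0.05, against -0.10 for all genes. Mvk, mevalonate kinase, had levels of 3.76, 3.77 and 3.84 without and 4.09, 4.02 and 3.94 with FABP4. Its groups did not overlap on this probe (0.22 ± 0.06, adjusted p = 0.622), whereas a second probe, above background on all 6 arrays, had 0.01 ± 0.06. Insig1, which holds the sterol sensor complex in the endoplasmic reticulum, had -0.14, 0.05 and -0.06 without and 0.12, 0.20 and 0.14 with FABP4. The groups did not overlap, and the difference was 0.20 ± 0.06 (adjusted p = 0.622). For Ebp, a sterol isomerase, the levels were 4.52, 4.50 and 4.72 without and 4.79, 4.76 and 4.77 with FABP4. Palmitic acid array 3 was again the nearest to the FABP4 arrays, and the difference was 0.19 ± 0.06. With the row as a block Mvk had 0.17, Insig1 0.21 and Ebp 0.05.

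LXR targets and cholesterol efflux genes, which remove surplus sterol, gave 0 calls among 14, with a median of 0.02. Apoe, an apolipoprotein of the particles that carry exported sterol, had 0.11 ± 0.05. Npc2 and Npc1, which pass cholesterol out of lysosomes, had 0.07 ± 0.05 and -0.10 ± 0.07. Apoe and Npc2 turned negative without scaling, at -0.02 and -0.06. Mylip, the ligase that degrades the LDL receptor, had the lowest estimate of the list at -0.76 ± 0.50 and was chosen here after its values were seen. It had levels of 1.15, -1.25 and -0.94 without FABP4 and -1.15, -1.04 and -1.13 with it, so that 1 palmitic acid array stood apart from the other 5.

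NF-kB response genes, which include the cytokines and chemokines of activated macrophages, gave 0 calls among 39. The median was 0.03 beside 0.04 for all genes, and all 39 intervals lay inside 1.5-fold. At an unadjusted p under 0.05 there were 4 higher and 1 lower, beside 6.11% and 1.62% of all genes. Nfkbia, the inhibitor that holds NF-kB in the cytoplasm, had levels of 8.11, 8.10 and 8.22 without and 8.28, 8.32 and 8.28 with FABP4. The groups did not overlap, at a difference of 0.15 ± 0.05 (adjusted p = 0.622), and the controls lay higher at 8.41, 8.39 and 8.44. Nfkbiz, a nuclear member of the same inhibitor family, went the other way, with 2.59, 2.58 and 2.54 without and 2.39, 2.44 and 2.43 with FABP4. Its difference was -0.15 ± 0.04 (adjusted p = 0.622). Traf1, an adaptor of TNF receptors, had 0.11 ± 0.04, and -0.02 without scaling. With the row as a block Nfkbia had 0.08 and Nfkbiz -0.12. Without scaling they had 0.02 and -0.28, and under quantile normalization 0.07 and -0.19. Nfkbia lay at levels above 8, where the median over all genes was 0.09 and 97.6% were positive.

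Some cytokine and enzyme genes of the NF-kB list are given in addition, picked here after their values were seen. Tnf had -0.01 ± 0.05 (95% interval -0.13 to 0.11), Il6 had 0.02 ± 0.09 (-0.17 to 0.21) and Il1b had 0.10 ± 0.05 (-0.01 to 0.21). Ccl2, a monocyte chemokine, had 0.09 ± 0.04 and the chemokine gene Ccl3 0.16 ± 0.06, and in both the groups did not overlap (unadjusted p = 0.0436 and 0.0314, adjusted p = 0.622 for each in limma). Nos2, the inducible nitric oxide synthase, had -0.05 ± 0.06, and Ptgs2, the inducible cyclooxygenase, 0.06 ± 0.07. Of 14 inflammasome genes 0 passed, with a median of 0.01. The ATP-gated channel gene P2rx7 had the highest estimate there, at 0.31 ± 0.08, with levels of -1.04, -1.05 and -0.83 without and -0.60, -0.62 and -0.77 with FABP4, groups that did not overlap. Of 39 interferon response genes 0 passed and the median was 0.01, with 0 higher and 3 lower at an unadjusted p under 0.05, beside 6.11% and 1.62% of all genes. Those 3 were Oas3, an antiviral synthetase (-0.17 ± 0.06), the chemokine gene Cxcl9 (-0.23 ± 0.09) and Ifnb1, interferon beta (-0.16 ± 0.06), and P2rx7 and these 3 were likewise picked after their values were seen.

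**Figure D2:**
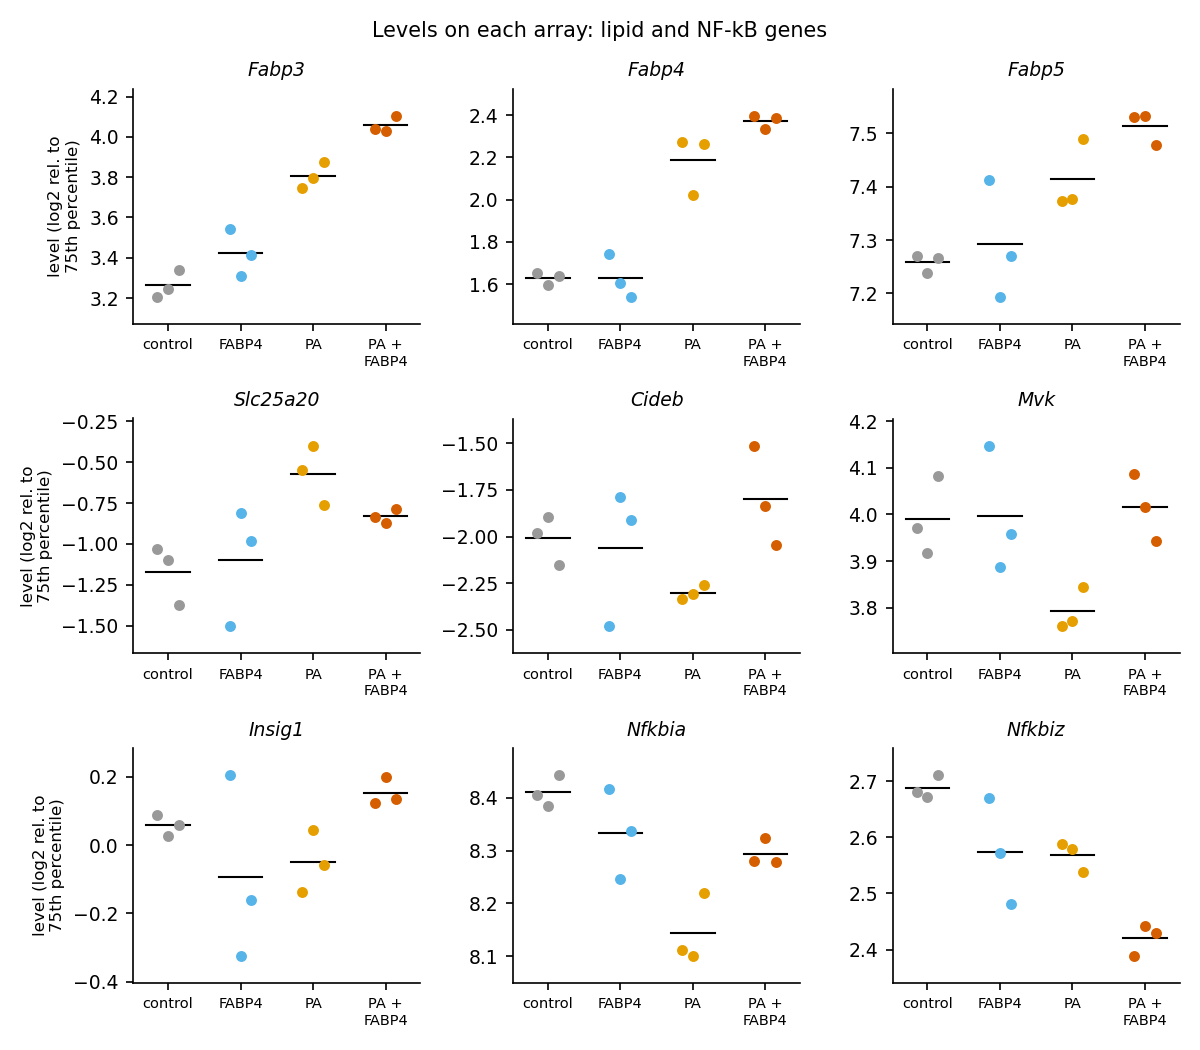
Level of 9 genes on each array (log2 relative to the array's 75th percentile, 3 points per group in replicate order; bars are group means; y axes differ and do not start at 0). The FABP4 arrays with palmitic acid (PA) lie above all PA arrays for Fabp3, Fabp4, Cideb, Mvk, Insig1 and Nfkbia and below them for Slc25a20 and Nfkbiz, while for Fabp5 the groups overlap; no difference passed at an adjusted p under 0.05.

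Stress pathways that a saturated fatty acid can engage gave no calls. Of 23 tested unfolded protein response genes 0 passed, with a median of 0.04, the same as for all genes at this precision. Sdf2l1, a chaperone partner in the endoplasmic reticulum, had levels of 2.65, 2.63 and 2.66 without and 2.72, 2.83 and 2.76 with FABP4. The groups did not overlap, and the difference was 0.12 ± 0.04 (adjusted p = 0.622). Pdia4, a disulfide isomerase, had 0.09 ± 0.05, and Sel1l, a part of the machinery that clears misfolded proteins, had -0.10 ± 0.06. Sdf2l1 and Pdia4 turned to -0.01 and -0.04 without scaling. ATF4 and amino acid response genes (33 tested) had a median of 0.00, NRF2 antioxidant genes (21) 0.05 and sphingolipid and ceramide genes (19) 0.02, each with 0 calls.

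Of the 603 list members tested in 32 lists, 0 passed. Among lists with over 5 tested members, those of ribosomal proteins and of oxidative phosphorylation, the machinery of translation and of mitochondrial respiration, had estimates of 1 sign throughout. All 22 ribosomal protein genes were positive, with a median of 0.11 and 9 at an unadjusted p under 0.05, beside 6.11% of all genes on that side. Rps23, the highest of them and chosen for that after its values were seen, had levels of 8.80, 8.90 and 8.99 without and 9.07, 9.05 and 9.04 with FABP4. Of these genes 19 lay at levels above 8, where the median over all genes was 0.09. Under quantile normalization 15 of 22 (68.2%) were positive with a median of 0.01, beside 55.3% and 0.01 for all genes. Without scaling it was 4 of 22 (18.2%) with a median of -0.02, beside 14.0% and -0.10. All 22 were positive under the percentile of probes detected on all arrays (median 0.071, all genes -0.002). The same held with the row as a block (median 0.033, all genes 0.002). All 30 oxidative phosphorylation genes were positive (64.9% of all genes), with a median of 0.07. Of these genes 16 lay at levels from 4 to 6, where 79.9% of all genes were positive with a median of 0.05. Another 11 lay at levels from 6 to 8, where it was 86.1% with a median of 0.06. Under the percentile of probes detected on all arrays 25 were positive (83.3%, beside 49.1% of all genes). Quantile normalization left 22 positive (73.3%, beside 55.3%) with a median of 0.022 (all genes 0.011), and no scaling left 3 (10%, beside 14.0%). With the row as a block 27 were positive (90%, beside 51.0%). Cell cycle genes were positive in 26 of 31 (83.9%), with a median of 0.06, and in 4 of 31 (12.9%) without scaling, beside 64.9% and 14.0% of all genes. Under the percentile of probes detected on all arrays 23 cell cycle genes were positive (74.2%, beside 49.1%), and under quantile normalization 22 (71.0%, beside 55.3%). With the row as a block 22 were positive (71.0%, beside 51.0%), and their median was 0.035 (all genes 0.002). Alternative activation genes were negative in 8 of 10, with a median of -0.02.

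**Figure D3:**
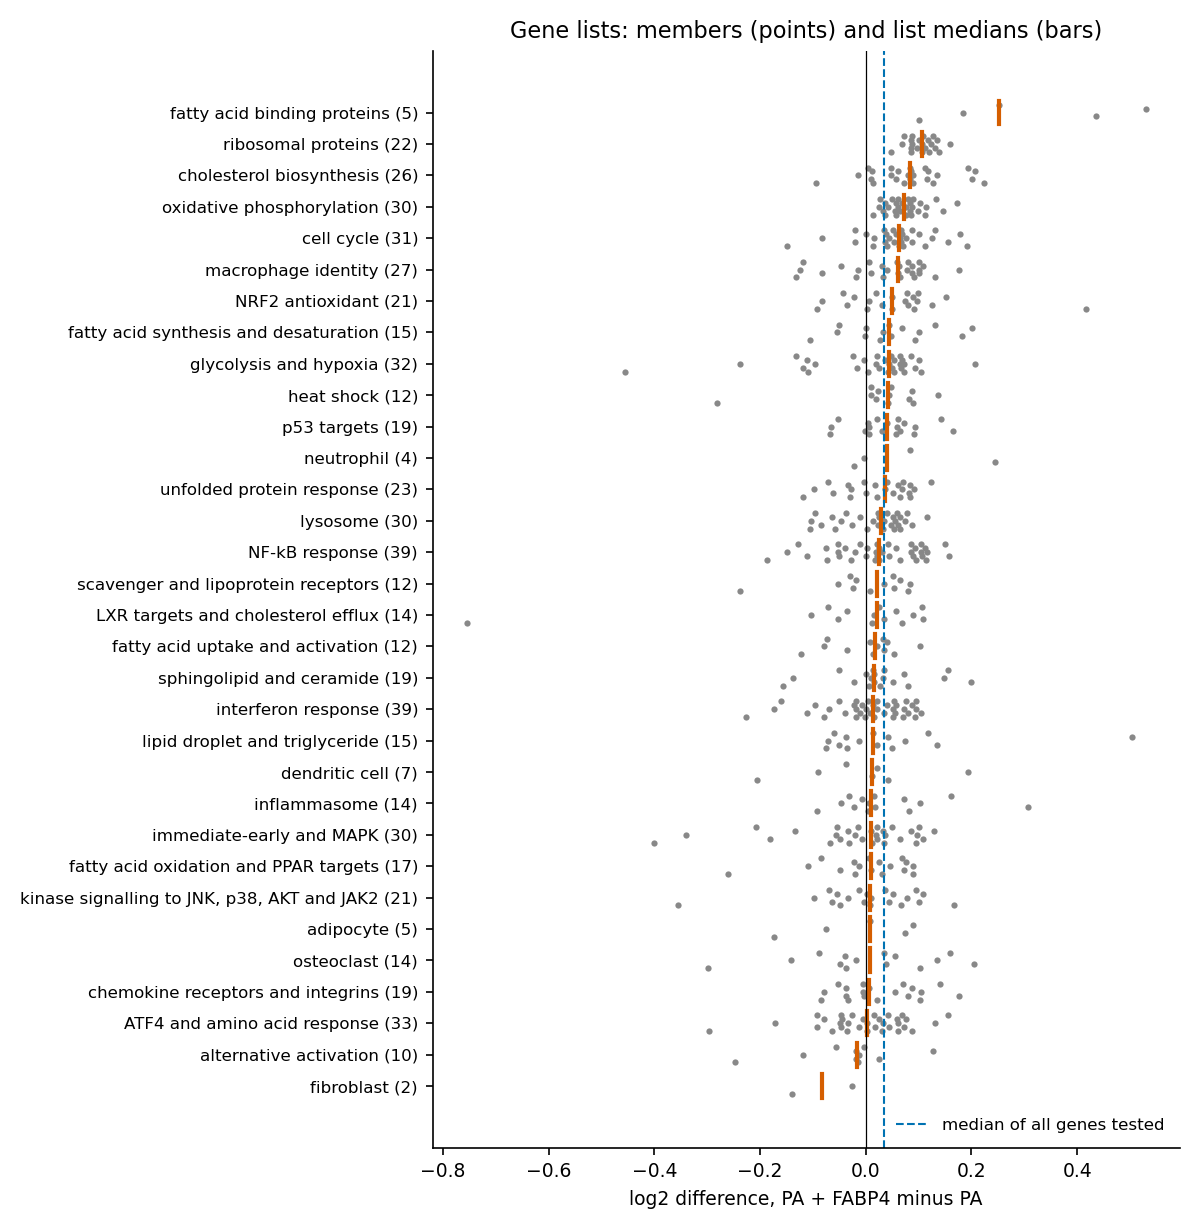
Difference between palmitic acid with FABP4 and palmitic acid alone (x axis, log2) for every tested member of the 32 gene lists, with the number tested in brackets; orange bars are list medians and the dashed line is the median of all genes tested, 0.04. The list medians run from -0.08 for 2 fibroblast genes to 0.25 for 5 fatty acid binding protein genes, and 0 members passed.

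The 12 genes of smallest p among those with an official symbol had adjusted p-values from 0.381 to 0.622. Of these, Chst3, a sulfotransferase of chondroitin chains, had levels of -2.38, -2.54 and -2.45 without and -2.06, -2.14 and -2.003 with FABP4 (0.39 ± 0.06, adjusted p = 0.381 in limma). Suox, the mitochondrial sulfite oxidase, had 0.28 ± 0.05, and Fam107a 0.40 ± 0.08. The RIKEN clone 1700029P11Rik had 0.41 ± 0.08. Lower estimates were found for Spring1, a regulator of SREBP processing, with levels of -1.54, -1.58 and -1.51 without and -1.88, -1.84 and -1.82 with FABP4 (-0.30 ± 0.05, adjusted p = 0.598). Mrm3, a mitochondrial rRNA methyltransferase, had -0.31 ± 0.06, and the amine oxidase gene Aoc3 -0.35 ± 0.07. Tmc2 had -0.50 ± 0.10 and was above background on 1 of 3 FABP4 arrays. Under normexp background correction Tmc2 had -0.07 ± 0.07 and Spring1 -0.10 ± 0.05. There the others had 0.24 (Chst3), 0.25 (Suox), 0.29 (Fam107a), 0.30 (1700029P11Rik), -0.18 (Mrm3) and -0.19 (Aoc3). The groups of these 8 genes, which were picked by their p, did not overlap, as in 14.5% of all genes.

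The remaining 4 of the 12 were near the detection limit without FABP4. Of the 17600 genes, 23 were well above background on all 3 arrays with both agents and on none with palmitic acid alone. The reverse held for 10 genes, and 16736 were above background on all 6. Genes of either kind could pass the detection filter through a single group. Those above background on all 3 arrays of that group and on no other array numbered 5 for both agents. The number was 3 for FABP4 alone, 2 for controls and 0 for palmitic acid alone. Among the 23 genes, the probes for 4930565N06Rik, Csmd1 and Defb45 gave the largest estimates, and the first 30 of their 60 bases are given 5′ to 3′.
4930565N06Rik, chr16:36880605-36880664, minus strand: gatgtatcaagctttaaaagggcaaggttc
Csmd1, chr8:17536569-17536628, plus strand: taccttccaagagtaaccagagactttatc
Defb45, chr2:152418941-152419000, minus strand: agaaatgaagttggacctcgaaagagtcca

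For 4930565N06Rik, a transcript known by its RIKEN clone, the processed intensity was 7.33, 7.18 and 7.27 with palmitic acid alone and 91.2, 181.7 and 33.1 with FABP4, and 5.33 to 10.2 on the 6 arrays without palmitic acid. All 3 arrays with both agents were high and the other 9 were at background. Set against the floor described below, this is a 6.58-fold rise in estimate, and it did not pass (adjusted p = 0.381 in limma). Csmd1, a large membrane protein of the complement-control type, had intensities of 6.17, 6.04 and 9.92 without and 48.4, 77.4 and 45.1 with FABP4. This was 4.45-fold against the floor (adjusted p = 0.381 in limma). Defb45, a beta-defensin, had 17.2, 29.0 and 21.6 without and 140.7, 75.7 and 194 with FABP4, 6.28-fold against the floor (adjusted p = 0.598 in limma). Second probes of Csmd1 and Defb45 were not above background on any of the 6 arrays, with differences of -0.04 ± 0.11 and 0.09 ± 0.11. Like 4930565N06Rik, both genes were tested only because all 3 arrays with both agents were above background. The differences of these genes are therefore no support for a change. C030010L15Rik had levels of -4.21, -3.87 and -3.63 without and -3.06, -2.89 and -2.99 with FABP4, 1.88-fold against the floor (adjusted p = 0.381 in limma). It was also above background on all 3 arrays of FABP4 alone, at -3.29, -3.09 and -2.93. These fold values set the FABP4 mean against, on each palmitic acid array, the higher of the probe's own level and a floor. The floor is the lowest level called above background on that array. Some brighter probes were not called, so the folds are no lower limits. Under normexp background correction (offset 50) the log2 difference was 1.12 ± 0.23 for 4930565N06Rik and 0.98 ± 0.17 for Csmd1. It was 1.22 ± 0.18 for Defb45 and 0.37 ± 0.10 for C030010L15Rik.

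**Figure D4:**
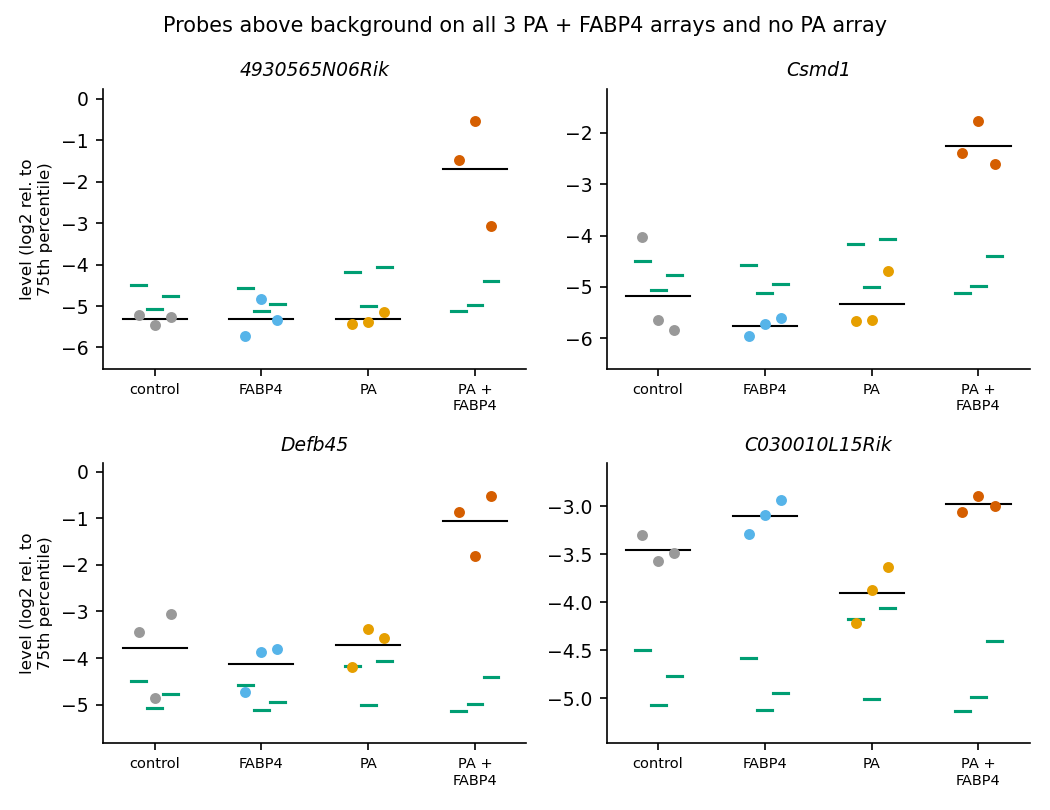
Level of 4 probes on each array (log2 relative to the array's 75th percentile; bars are group means; green ticks are the lowest level called well above background on that array; y axes differ). For 4930565N06Rik, Csmd1 and Defb45 the 3 arrays of palmitic acid (PA) with FABP4 stand above the other 9. The detection filter kept these genes only through those 3 arrays. For C030010L15Rik the arrays of PA with FABP4 lie level with those of FABP4 alone. A point above its tick can still fail the flag, which is set spot by spot.

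Some fits called a few genes. With the row as a further block 10 genes passed, 3 higher and 7 lower. Of those with an official symbol the lower ones were Fbxo39 (-1.25 ± 0.09, adjusted p = 0.00837), Bcar1 (-1.86 ± 0.17), Cacna1s (-1.27 ± 0.14), Rnf146 (-1.21 ± 0.12) and Tmem38b (-0.85 ± 0.08). With only the 4 arrays of row 2 kept of this comparison, a choice made after seeing the data, 2 genes passed, both lower, Fbxo39 among them (adjusted p = 0.0225). Without array 3 of palmitic acid with FABP4, 2 genes passed, 4930565N06Rik and Trim69 (2.16 ± 0.13), each at an adjusted p of 0.0018. Trim69 was called in this fit only, where its level with both agents rests on arrays 1 and 2. With trended and robust moderation 2 passed, 4930565N06Rik among them (adjusted p = 0.0216). That gene was above background on the 3 arrays with both agents and on 0 of the other 9, so it was tested only because it was high there, and its calls are no support for a change. Palmitic acid array 3 is the only palmitic acid array in row 2, so the calls of the first 2 of these fits rest on it.

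The same protein without palmitic acid was compared on the other 6 arrays. With the slide as a block that estimate rests on FABP4 array 1 against the 3 controls, which shared a slide, since the other FABP4 arrays lay on the second slide. It gave 103 calls (0.585%), 20 higher (0.114%) and 83 lower (0.472%), against 3 calls when the slide was left out of the fit. For the members described above the values side by side are 0.19 with palmitic acid and 0.11 without for Fabp4, 0.25 and 0.28 for Fabp3, 0.10 and 0.15 for Fabp5, and 0.50 and -0.47 for Cideb. For Nfkbia they are 0.15 and 0.01, and for Nfkbiz -0.15 and -0.02. As differences of the 3-array means, with the slide left out, the values without palmitic acid were 0.00 for Fabp4, 0.16 for Fabp3, 0.03 for Fabp5, -0.05 for Cideb, -0.08 for Nfkbia and -0.11 for Nfkbiz.

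The difference between both FABP4 effects, the interaction, was called for 37 genes (0.21%), 33 higher (0.188%) and 4 lower (0.0227%) with palmitic acid, and for 0 when the slide was left out of the fit (limma, smallest adjusted p = 0.3, 1218 genes at an unadjusted p under 0.05). For Fabp4 the interaction was 0.07 ± 0.12 (95% interval -0.19 to 0.33) and for Fabp3 -0.03 ± 0.10 (-0.25 to 0.19), and neither was called. Of the 37, the gene of smallest p with an official symbol was Prmt1, an arginine methyltransferase, at 1.69 ± 0.10 (adjusted p = 2.3e-04). Its difference with palmitic acid present was 0.08 ± 0.06. Its levels were 5.63, 5.59 and 5.65 in controls, 4.02, 5.46 and 5.53 with FABP4, 5.46, 5.52 and 5.63 with palmitic acid, and 5.67, 5.64 and 5.54 with both. FABP4 array 1 was low and the other 11 arrays lay between 5.46 and 5.67. Hmox1, heme oxygenase, had an interaction of 1.24 ± 0.09 and Trappc3, a vesicle tethering subunit, 1.15 ± 0.10, with the same array low. Anp32a (-1.52 ± 0.11), Slc45a3 (-1.42 ± 0.12) and Rmrp, the RNA of RNase MRP (-1.05 ± 0.09), had it high. In all 37 called genes FABP4 array 1 lay outside the range of the other 11 arrays, below it in 33 and above it in 4. Without that array the slide and the control group cannot be told apart, the fit then has no slide term, and 5 genes passed, 0 of them among the 37.

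**Figure D5:**
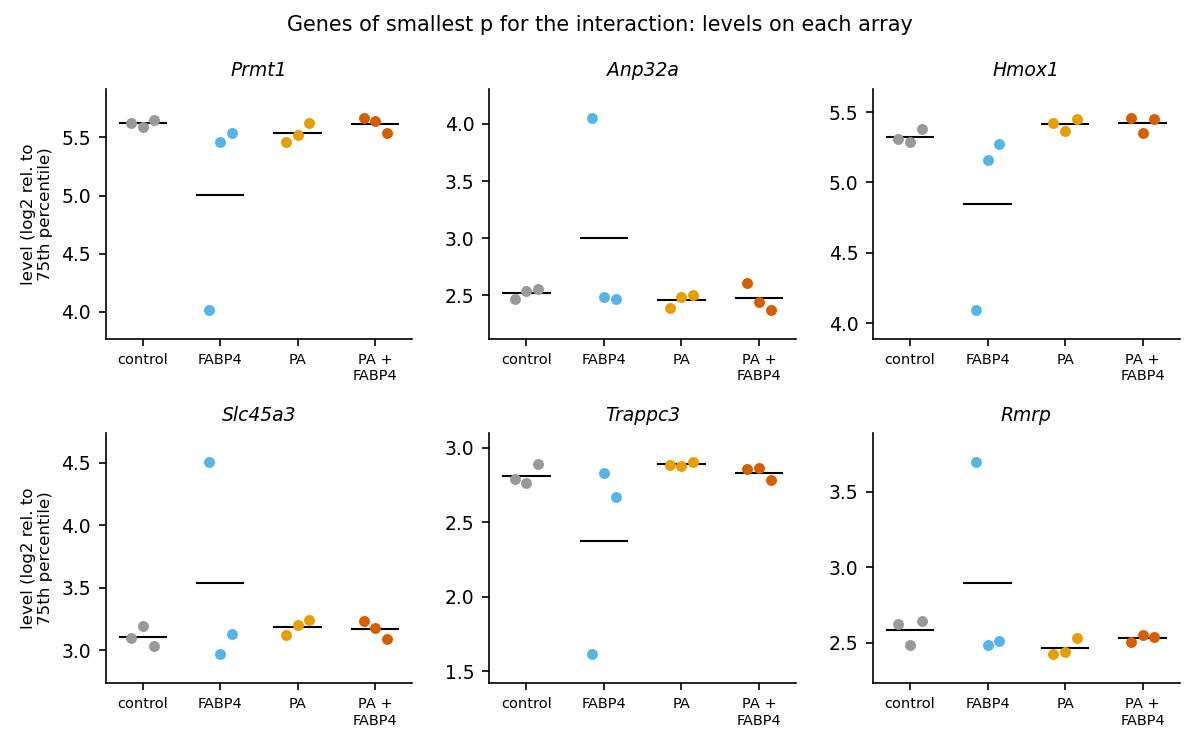
Level on each array of the 6 genes with an official symbol and the smallest p for the interaction (log2 relative to the array's 75th percentile; bars are group means; y axes differ). In each panel FABP4 array 1, the first point of the second group, stands apart from the other 11 arrays, and the arrays of palmitic acid (PA) with and without FABP4 lie close together.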

How the data were processed

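Per the labels' protocols, 50 ng of total RNA was converted to Cy3-labelled cRNA for each 1-colour Agilent mouse array. Per the file headers, Agilent Feature Extraction 10.7.3.1 gave each spot a processed intensity, linear, background-subtracted and not normalized between arrays, and probe positions are in mm9. The value table that the authors deposited matched these intensity values within 0.005 on every array. Other steps are not given in the sources used here.

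Control and outlier spots were left out, spots of a probe were averaged, and log2 values were taken relative to each array's 75th percentile over non-control spots. A probe was kept if some group had it well above background on each of its 3 arrays (23919 probes), and a gene was represented by its brightest probe (17600 genes, 12329 with an official symbol). Design names were updated through accessions where the RefSeq table held them (27235 of 55681 probes). Under 50% of spots were above background, and a percentile taken over the probes detected on every array was an alternative. The precision is limited by the number of arrays.

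limma 3.58.1 in R 4.3.3 with data.table (version 1.17.8) fitted 4 group means and the slide as a fixed block to all 12 arrays (lmFit, eBayes, two-sided), with Benjamini-Hochberg adjustment and a threshold of 0.05. The code was tested on simulated data. Figures used matplotlib 3.10.9 in Python 3.11.15. Replicate numbers were not used as pairs: deviations of same-numbered arrays of both groups correlated at -0.06, 0.02 and 0.01. For arrays of different number the correlations ran from -0.05 to 0.04. These values show no shared deviation, and they cannot show whether the samples were handled in pairs.

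The members, gene lists and tests were chosen with earlier results of these data known. Genes named are the detected fatty acid binding proteins, the 12 of smallest p with an official symbol since 0 were called, the 3 of smallest p in the NF-kB, fatty acid oxidation, lipid droplet, LXR, cholesterol biosynthesis and unfolded protein response lists, and the 6 of smallest p for the interaction. A result that this rule selects is not reported here. Others are marked as chosen after their values were seen. The 32 lists hold 699 genes, 698 of them on the array. Alternatives covered scaling, background correction, filters, probe choice, blocks, moderation and leaving out each array.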

Additional observations from a re-analysis of the deposited data

Results flagged for a closer look

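The FABP4 effects with and without palmitic acid differed for 37 genes in a test of the difference itself (limma, adjusted p under 0.05, slide as a block). In that fit the effect without palmitic acid rests on FABP4 array 1 alone, and 0 genes were called by limma with no slide block (1218 at an unadjusted p under 0.05) or with the slide as a random block. The 6 genes named for it were Prmt1 (1.69), Anp32a (-1.52), Hmox1 (1.24), Slc45a3 (-1.42), Trappc3 (1.15) and Rmrp (-1.05), on the log2 scale. In each of the 37 genes FABP4 array 1 lay outside the range of the other 11 arrays, and that array is the only FABP4 array on the slide of the controls.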

How the results depend on the processing

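Of 30 alternatives, 26 gave 0 calls for FABP4 with palmitic acid; the row block gave 10, trended and robust moderation 2, and row 2 alone, an alternative chosen after seeing the data, 2, while leaving out 1 array gave 0 to 2. No list member was called under any of them. Of 34 named genes, 23 kept their sign in every alternative. Signs turned without scaling for Fabp5 (-0.029), Pparg (-0.039), Fitm2 (-0.012), Plin3 (-0.055), Apoe (-0.021), Npc2 (-0.060), Traf1 (-0.015), Sdf2l1 (-0.006) and Pdia4 (-0.038), where the median of all genes was -0.10; with the row block and with row 2 alone for Fabp7 (-0.036), Pparg (-0.010) and Plin3 (-0.014); and with the mean of a gene's probes for Fitm2 (-0.011). Without 1 array Fabp2 ranged from -0.154 to 0.868, negative without array 3 of palmitic acid with FABP4. With the row block the values of 11 of the 34 genes were smaller by over 1.5 times or of the other sign.

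With the replicate block, a number the arrays only share, the counts were 0 for FABP4 with palmitic acid (limma, 1078 higher and 299 lower at an unadjusted p under 0.05), 16 for the interaction and 32 for FABP4 without palmitic acid. The interaction count of 37 became 0 in limma with no slide block or a random one (880 and 739 higher, 338 and 280 lower at an unadjusted p under 0.05), 15 with the row block, 9 with no scaling, 126 with no filter on dim probes and 128 with trended moderation, and lay between 5 and 32 without 1 array. Without 1 array Anp32a ranged from -1.582 to 0.057, Slc45a3 from -1.463 to 0.036 and Rmrp from -1.075 to 0.154, each positive without FABP4 array 1. With the mean of a gene's probes the interactions of Anp32a (-0.83, adjusted p = 0.0834 in limma) and Slc45a3 (-0.67, adjusted p = 0.0731) were no longer called, and without scaling those of Hmox1 (0.97, adjusted p = 0.0715) and Trappc3 (0.88, adjusted p = 0.18) were not. The count of 103 for FABP4 without palmitic acid became 3 with no slide block, 0 with a random one (392 higher and 559 lower at an unadjusted p under 0.05), 188 with the percentile of probes detected on every array, 28 with no scaling, 217 with no filter and 246 with trended moderation, and lay between 49 and 151 without 1 array. Without FABP4 array 1 that count was 59, 56 higher and 3 lower, against 20 higher and 83 lower in the main fit. With that array left out the fit has no slide term, and slide and FABP4 cannot be told apart in this comparison. Apart from the slide, row and array choices described with the results, the cause of these moves was not tested. Probes near background have the widest intervals.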
